A study of Mus musculus with 2 samples.

Results

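Glycosyltransferases build the sugar chains of cell surface proteins and lipids in the secretory pathway. The family was chosen by gene name and holds the genes whose symbols start with B3gal, B3gnt, B4gal, Fut with a digit, Galnt, Mgat, St3gal, St6gal, St8sia, C1galt, Gcnt, Pofut, Mfng or Rfng, read on oligonucleotide arrays. Of 45101 probe sets on the array, 198 belonged to the family, and they read 93 genes. The names were not chosen by their measured values, and they take in enzymes of glycolipids and proteoglycans as well as those of N-glycans and mucin type O-glycans.

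RNA came from DN3 thymocytes, immature T cell precursors sorted as lineage-negative cells with CD25 and without CD44. The Miz1 knockout array carried RNA of mice with the Miz1-delta-POZ allele, which removes the POZ domain of the transcription factor Miz-1 (gene Zbtb17), and the wt array carried RNA of wild-type mice, both on the C57BL/6 background. The comparison asks how loss of Miz-1 activity alters gene expression at this stage. There was 1 array per genotype, so no value has an error between animals, no difference was tested, and differences are described by size. The labels give neither the age of the mice, nor the number of animals behind each RNA, nor the cells in which the allele was deleted.

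In thymocytes, O-fucose and Fringe enzymes modify Notch receptors and alter which ligands they answer. Branching of N-glycans sets how strongly galectins hold receptors at the surface, and sialic acids cap most chains and change as thymocytes mature. N-glycans are started by transfer of a finished oligosaccharide to the protein, then trimmed and rebuilt in the Golgi, whereas mucin type O-glycans grow sugar by sugar from a first N-acetylgalactosamine.

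Values are deposited signal intensities on a linear scale. The floor is the median of all non-control intensities of both arrays, 394, and lower values were raised to it before the log2 ratio of knockout over wt was taken. Where a gene had several probe sets, the one with the highest mean of both arrays stands for it, and the gene is called measured if that mean exceeded the floor. A ratio with its dimmer array under the floor is a bound. It is written as "at least" where given as a fold, and rests on this chosen floor, since detection calls were not used here. Log2 ratios of such probe sets are likewise bounds on the size, also where "at least" is not written. Intensities of different probe sets cannot be set against each other, so levels are compared only between the arrays.

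Most sort markers went with the labelled cell type. All 9 of the DN3 genes found on the array were measured, among them Il2ra, which encodes CD25 (23018 in the knockout, 4992 in wt), and Ptcra, the pre-T alpha chain (11518 and 7513). Of the genes taken to be low at this stage, Cd44 read 331 and 424 and Cd4 was under the floor on both arrays, but Kit (825 and 749) and Cd8a (541 and 497) were above it on both. The DN3 genes also differed between the arrays: 8 of 9 had positive ratios, with a median of 0.62, and Dtx1 (5.09-fold), Il2ra (4.61-fold) and Cd3g (2.17-fold) were higher in the knockout. Their part in the differences below was not tested. Zbtb17 read 1361 in the knockout and 3042 in wt, but no source used here places its probes inside or outside the deleted part, so Zbtb17 cannot check the labels. The animals differed in sex as well: Xist, transcribed from the inactive X chromosome, read 55300.0 in the knockout and 423 in wt, and the Y-linked genes Kdm5d (36.7 and 1782) and Eif2s3y (46.8 and 1433) went the opposite way. Sex and genotype cannot be told apart in any difference below.

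Of the 93 genes, 58 were measured, and 49 of these differed by less than 2-fold at this floor. B4galnt2 had the largest ratio among members above the floor on both arrays. By the 2-fold rule 7 of them were higher in the knockout (12.1%, where 7.23% of all 10770 measured genes were) and 2 were lower (3.45%, where 5.65% of all were). The 7 were B4galnt2, St6galnac3, St3gal3, St8sia5, Galnt16, Galnt11 and B3gntl1, and the 2 were St8sia1 and St6galnac6. Together 9 of 58 passed 2-fold, 15.5%, beside 12.9% of all measured genes, so the share past 2-fold was near that of the whole array. The split depended on scaling: 3 were higher and 2 lower under quantile (of 59) or loess normalization (of 58). Under median centring 4 of 59 were higher and 2 lower. Of all measured genes 6.22%, 6.32% and 5.58% were higher under quantile, loess and median centring, and 6.45%, 6.36% and 7.88% lower. Of the 58 floored ratios, 31 lay between -0.5 and 0.5 on the log2 scale. The median log2 ratio was 0.16, against 0.00 over all measured genes, and 37 of 58 ratios were positive (63.8%), as were 5386 of the 10770, but 30 of 59 were under median centring, 32 of 59 under quantile and 31 of 58 under loess normalization.

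**Figure D1:**
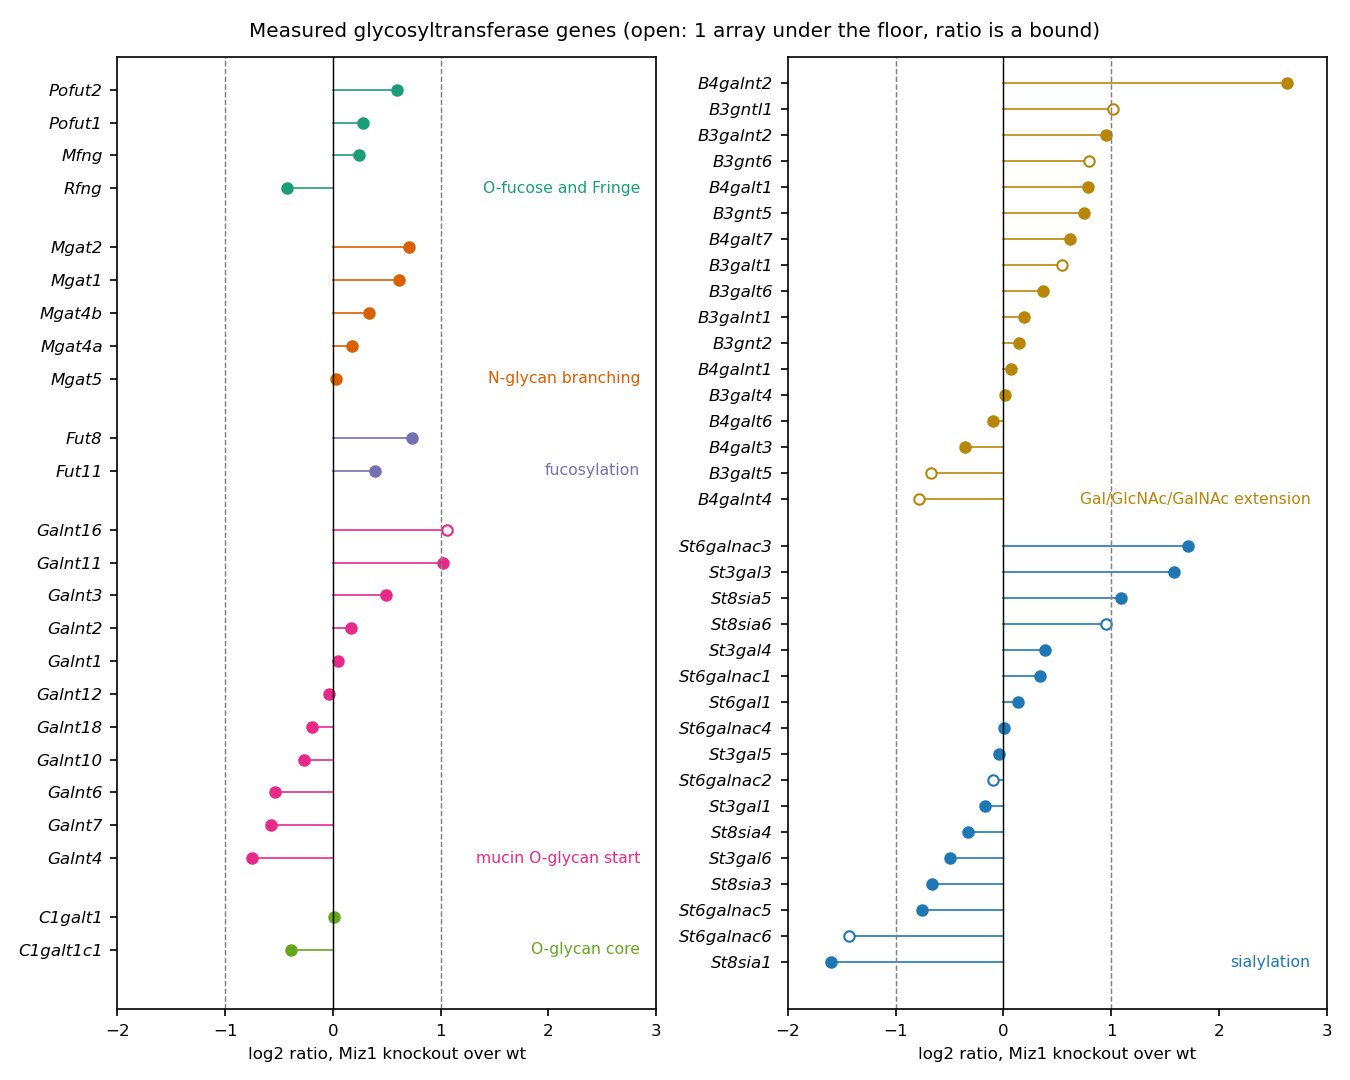
Log2 ratio of Miz1 knockout over wt (horizontal axis) for each of the 58 measured genes, grouped by role, with 1 array per genotype. Filled points have both arrays above the floor, open points are bounds, and dashed lines mark 2-fold. B4galnt2 stands at 2.63, and the points of 49 genes lie between the dashed lines.

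B4galnt2, which adds N-acetylgalactosamine to sialylated chains to form the Sda antigen, read 2837 in the knockout and 458 in wt. That is 6.19-fold higher, a log2 ratio of 2.63, and at this floor 10 of the other measured genes on the array had a larger ratio. With the floor at the lower quartile, B3gntl1 (2.75) and a sialyltransferase, St8sia6 (2.68), had larger ratios than B4galnt2 (2.63). A second B4galnt2 probe set read 2643 and 497, a log2 ratio of 2.41. The remaining B4galnt2 probe sets were under the floor on both arrays, at 337 and 147 for the first and at 32.7 and 61.2 for the other. In these bulk samples, fewer cells of a type and less RNA per cell cannot be told apart.

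St6galnac3, a sialyltransferase that acts on N-acetylgalactosamine in O-glycans and gangliosides, read 1853 in the knockout and 564 in wt, 3.29-fold higher. Its second probe set above the floor read 534 and 440.1, a log2 ratio of 0.28, so the difference rests on 1 probe set. With the mean of both probe sets the log2 ratio of St6galnac3 was 0.998, just under 2-fold. St3gal3, which caps galactose with alpha-2,3 sialic acid, read 1556 and 519, a log2 ratio of 1.58, and its other probe set was under the floor on both arrays.

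St8sia1, the GD3 synthase that adds a second sialic acid to the ganglioside GM3, went the other way. It read 581 in the knockout and 1760.2 in wt, 3.03-fold lower. The next St8sia1 probe set read 376 and 573, a log2 ratio of -0.54, and the third read 58.0 and 369, both under the floor. St6galnac6, a sialyltransferase of gangliosides, read 174 and 1066 by its only probe set, at least 2.71-fold lower. With the floor at the 60th percentile of intensities the log2 ratio of St6galnac6 was -0.95, under 2-fold.

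Of the other genes past 2-fold, St8sia5 and Galnt11 lay close to the limit. St8sia5, also a ganglioside sialyltransferase, read 928 in the knockout and 435 in wt (2.13-fold). Galnt11, which starts O-glycans and acts on Notch1 in frogs, read 1486 and 732 (2.03-fold), and Galnt16 of the same family read 823 and 316 (at least 2.09-fold). St8sia5 and Galnt11 were under 2-fold under all 3 other scalings, and Galnt16 under quantile and loess normalization. With the floor at the 60th percentile St8sia5 and Galnt16 were under 2-fold too, at 0.75 and 0.58 on the log2 scale. B3gntl1 gave no settled direction: one probe set read 799 and 111, at least 2.03-fold higher, and another read 215 and 687, a log2 ratio of -0.80. Under median centring, quantile and loess normalization the second of these became the one that reads B3gntl1.

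**Figure D2:**
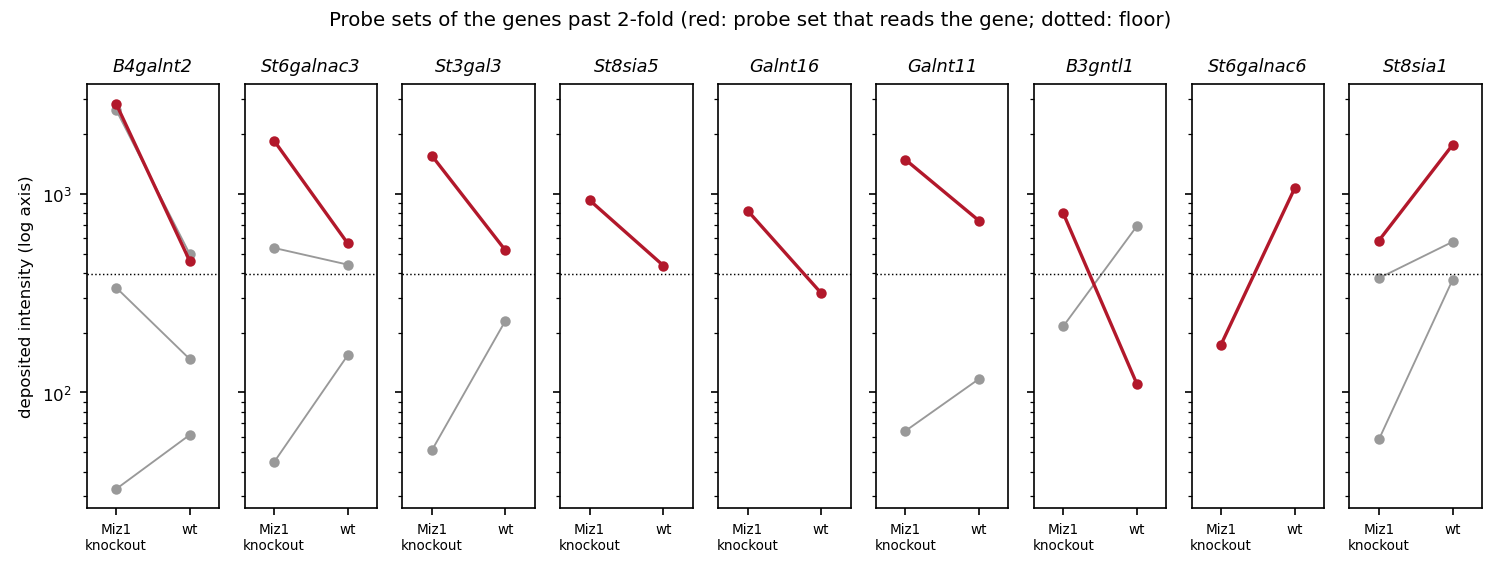
Deposited intensity on a log axis for every probe set of the 9 genes past 2-fold, with the Miz1 knockout array left of wt in each panel. The red line is the probe set that reads the gene, grey lines are its other probe sets, and the dotted line is the floor of 394. Both B4galnt2 probe sets above the floor fall steeply towards wt, while the 2 B3gntl1 probe sets cross.

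The promoter windows of 4 of these genes follow. B4galnt2, St3gal3 and St8sia1 are shown because they were past 2-fold in the same direction in every alternative in which they were measured, and St6galnac3 because it had the second largest ratio of the family. Each window holds 250 bases before and 50 after the annotated start, from RefSeq on GRCm38.p6, printed in the direction of transcription. They lie at chr11:95914822-95915121, chr3:153725084-153725383, chr4:118134897-118135196 and chr6:142964403-142964702 in the order printed, all on the minus strand. Capitals mark matches to the searched motifs, which were ATCGAT (letters reported for Miz-1), CACGTG (the E-box of MYC, a partner of Miz-1) and TATAAA, on both strands.
B4galnt2: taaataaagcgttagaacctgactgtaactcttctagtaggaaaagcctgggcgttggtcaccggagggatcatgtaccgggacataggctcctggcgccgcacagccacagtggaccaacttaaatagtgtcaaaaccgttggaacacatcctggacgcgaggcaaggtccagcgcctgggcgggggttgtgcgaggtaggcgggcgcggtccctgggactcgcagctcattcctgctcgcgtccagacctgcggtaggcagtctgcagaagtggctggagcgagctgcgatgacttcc
St6galnac3: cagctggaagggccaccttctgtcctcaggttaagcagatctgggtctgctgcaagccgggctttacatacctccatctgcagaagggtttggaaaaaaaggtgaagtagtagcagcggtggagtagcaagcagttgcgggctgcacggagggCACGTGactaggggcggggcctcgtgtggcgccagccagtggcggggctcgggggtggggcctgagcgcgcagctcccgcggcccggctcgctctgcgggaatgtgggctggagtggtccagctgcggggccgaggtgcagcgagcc
St3gal3: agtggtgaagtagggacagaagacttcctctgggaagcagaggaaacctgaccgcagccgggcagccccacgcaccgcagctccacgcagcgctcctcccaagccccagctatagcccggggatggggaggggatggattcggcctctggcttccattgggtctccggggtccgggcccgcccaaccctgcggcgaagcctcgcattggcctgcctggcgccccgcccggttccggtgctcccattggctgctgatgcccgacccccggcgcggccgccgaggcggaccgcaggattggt
St8sia1: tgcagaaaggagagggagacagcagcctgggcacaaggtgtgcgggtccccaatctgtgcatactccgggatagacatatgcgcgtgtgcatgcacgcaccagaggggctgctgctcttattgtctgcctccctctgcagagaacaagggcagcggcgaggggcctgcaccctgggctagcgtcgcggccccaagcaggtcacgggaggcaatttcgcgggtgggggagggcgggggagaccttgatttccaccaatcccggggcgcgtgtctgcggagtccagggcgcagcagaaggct

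A single match was found in these 4 windows, CACGTG in St6galnac3, at 97 bases before the start. Over all 32851 mouse windows of this length in the table, 7.15% held CACGTG, 13.6% TATAAA and 0.925% ATCGAT. The family had 92 windows for 67 of its 93 genes. CACGTG was present in 6 of these 92, in the windows of B3galt2, B3galt5, B3gnt7, B3gntl1, Galnt9 and St6galnac3. TATAAA stood in 3, those of Galntl6, Gcnt1 and Mgat4c, and ATCGAT in 0. With a window for only 72.0% of the genes, under the 80% needed, the family's shares are not compared with those of all genes. A match is a description of letters and not a binding site.

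The 4 O-fucose and Fringe genes of the family were all measured, and none reached 2-fold by the probe set that reads it. Pofut1, which attaches O-fucose to the epidermal growth factor repeats of Notch, read 1731 in the knockout and 1430.3 in wt, a log2 ratio of 0.28. A second Pofut1 probe set read 825 and 344, a log2 ratio of at least 1.07. Pofut2, which fucosylates thrombospondin repeats, read 1361 and 902, a log2 ratio of 0.59. Mfng (Manic fringe), which extends O-fucose with N-acetylglucosamine, read 2152 and 1821, a log2 ratio of 0.24. Rfng (Radical fringe), with the same activity, read 1714 and 2303, a log2 ratio of -0.43, and its second probe set gave -0.77 as a bound. Lfng (Lunatic fringe), which is not counted in the family, read 651 in the knockout and 53.8 in wt with a mean under the floor, so it has no measured ratio.

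No N-glycan branching enzyme passed 2-fold. Of 10 Mgat genes 5 were measured, and all 5 had positive ratios as deposited, from 0.02 to 0.71, while Mgat5 turned to between -0.10 and -0.09 under the 3 other scalings and Mgat4a to -0.05 with the mean over probe sets. Mgat1, which opens the way from high-mannose to complex N-glycans, read 5434 in the knockout and 3562 in wt, a log2 ratio of 0.61. Mgat2, which starts the second antenna, read 2696 and 1652 (log2 ratio 0.71), although its other probe set gave 0.05. The third-branch enzymes Mgat4a and Mgat4b had log2 ratios of 0.18 and 0.34, and the second Mgat4a probe set gave -0.29. Mgat5, whose beta-1,6 branch carries galectin ligands and whose loss in mice lowers the threshold of T cell activation, read 988 and 971 by the probe set with the higher mean, a log2 ratio of 0.02. The other Mgat5 probe set read 1171 and 627, a log2 ratio of 0.90. Mgat5 thus has no settled size of difference on these arrays. The bisecting enzyme Mgat3 had a mean under the floor (558 in the knockout, 161 in wt), as had Mgat4c, Mgat4d, Mgat4e and Mgat5b. With the floor at the lower quartile Mgat3 was past 2-fold higher and Mgat4d (60.2 and 262) past 2-fold lower.

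Among fucosyltransferases 2 of 9 were measured. Fut8, which adds the core fucose of N-glycans and modifies the T cell receptor, read 4155 in the knockout and 2492 in wt, a log2 ratio of 0.74, and its second probe set gave 0.60. Fut11 read 811 and 619.8, a log2 ratio of 0.39, but its 3 probe sets above the floor ran from -0.65 to 1.05, each end being a bound. Fut7 and Fut4, which make selectin ligands in leukocytes, had means under the floor, with 510.1 and 656 in the knockout and 165 and 79.1 in wt. Fut1, Fut2, Fut9, Fut10 and the pseudogene Fut4-ps1 were not measured either.

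The polypeptide N-acetylgalactosaminyltransferases, which start mucin type O-glycans, showed no common direction. Of 18 Galnt and Galntl genes 11 were measured, 5 with positive and 6 with negative ratios, and the median log2 ratio of -0.03 turned to 0.04 under quantile and 0.06 under loess normalization. Galnt1 read 6570.0 in the knockout and 6376 in wt (log2 ratio 0.04), with 0.88 for its second probe set. Galnt2 read 5666 and 5032 (0.17) and Galnt12 read 4784 and 4896 (-0.03). Besides Galnt11 and Galnt16, the ratios ran from -0.75 for Galnt4 to 0.49 for Galnt3. Galnt6 had -0.53 by the probe set that reads it and at least 1.16 by another, and the 3 Galnt7 probe sets ran from -0.58 to 0.44. Galnt5, Galnt9, Galnt13, Galnt14, Galnt15, Galntl5 and Galntl6 were not measured.

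By the probe sets that read them, the core enzymes of O-glycans differed little where they were measured. C1galt1, the core 1 galactosyltransferase, read 1981 in the knockout and 1967 in wt, a log2 ratio of 0.01, with the 3 probe sets between -0.26 and 0.32. C1galt1c1 (Cosmc), the chaperone that C1galt1 needs, read 1710.0 and 2242, a log2 ratio of -0.39. The other C1galt1c1 probe set went the opposite way with a mean under the floor. It read 625 and 102, a log2 ratio of at least 0.66. The Gcnt genes, which add the branch of core 2 and related structures, were all 4 under the floor by their means. Among them Gcnt1, the core 2 enzyme of leukocytes, read 417 in the knockout and 43.5 in wt, and Gcnt2 read 26.3 and 364.

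Of the 26 genes that extend chains with galactose, N-acetylglucosamine or N-acetylgalactosamine, 17 were measured, and 13 of these had positive ratios, or 10 under each of the 3 other scalings, with a median of 0.37 as deposited. B4galt1, which adds galactose to N-acetylglucosamine, read 3927 in the knockout and 2282 in wt, a log2 ratio of 0.78. B4galt3, with the same activity, read 1515 and 1937, a log2 ratio of -0.36, so the members of this activity did not share a direction. B3gnt2, which builds poly-N-acetyllactosamine, read 5751 and 5195, a log2 ratio of 0.15, with -0.65 for its second probe set. B3galnt2, which acts on O-mannose chains of dystroglycan, read 2207 and 1142, a log2 ratio of 0.95. Its other probe sets above the floor gave 0.55, a bound, and -0.32.

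Besides B4galnt2, given above, no gene of this group above the floor on both arrays reached 2-fold, the glycolipid and proteoglycan enzymes included. B3gnt5, which starts lacto-series glycolipids, had a log2 ratio of 0.75 (1500.5 and 895), and the ganglioside enzymes B4galnt1 and B3galt4 had 0.07 and 0.02. B4galt6, a lactosylceramide synthase, had -0.10, with at least 0.93 for its second probe set. The linkage enzymes of proteoglycans, B4galt7 and B3galt6, had 0.62 and 0.37, and the 3 B3galt6 probe sets lay between 0.37 and 0.52. B3galnt1 had 0.20. B3gnt6, B3galt1, B4galnt4 and B3galt5, each with an array under the floor, had 0.80, 0.55, -0.78 and -0.67 as bounds. With the floor at the lower quartile B3gnt6 was past 2-fold higher and B4galnt4 and B3galt5 past 2-fold lower. With the floor at 394 the second B3galt5 probe set gave at least 0.35. B3galt2, B3gnt3, B3gnt4, B3gnt7, B3gnt8, B3gnt9, B4galt2, B4galt4 and B4galt5 were not measured.

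Sialyltransferases held the most genes past 2-fold, 5 of 17 measured, 3 higher and 2 lower (17.6% and 11.8%, beside 7.23% and 5.65% of all measured genes), though St8sia5 was under 2-fold in 4 of its 7 alternatives. The remaining 12 floored ratios lay between -0.75 and 0.95, the upper end being a bound for St8sia6, and the median of all 17 was -0.04. St8sia4, a polysialyltransferase, read 2598 in the knockout and 3263 in wt, a log2 ratio of -0.33, and its second probe set gave at least 0.64. St6gal1, which adds alpha-2,6 sialic acid to N-glycans, read 1209 and 1097 (0.14). St3gal1, which caps core 1 O-glycans in maturing T cells, read 444 and 501 (-0.17), and St3gal6 read 554 and 779 (-0.49). St3gal5, the GM3 synthase that makes the substrate of St8sia1, read 660 and 680.0, a log2 ratio of -0.04.

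The rest of the sialyltransferases had no common direction either. St8sia6 read 761 in the knockout and 68.0 in wt, at least 1.93-fold higher and past 2-fold with the floor at the lower quartile. St6galnac5 and St8sia3 had log2 ratios of -0.75 and -0.66. The other St8sia3 probe set, with a mean under the floor, read 658 and 67.5, a log2 ratio of at least 0.74. St3gal4 and St6galnac1 had 0.38 and 0.34. St6galnac4 had 0.01, with -0.34 for its second probe set. St6galnac2 (393 and 421) had -0.10 as a bound. The other St6galnac2 probe set, with a mean under the floor, read 67.3 and 678, a bound of -0.78. St3gal2, St6gal2 and St8sia2 were not measured.

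Probe sets of the same gene were the only repeated measurement, and they share the arrays. In 26 measured genes 2 or more probe sets lay above the floor. In 13 of these all ratios had the same sign, and in the other 13 they did not. The root mean square SD of log2 ratios within a gene was 0.61 in the family and 0.57 over 4514 genes of the array. Over all 90 family probe sets above the floor, 11 were at least 2-fold higher (12.2%, beside 8.17% of all such probe sets) and 2 were lower (2.22%, beside 5.43%). B4galnt2 was the only family gene with more than 1 probe set past 2-fold, and its 2 values differed by less than the within-gene SD. St3gal3, St8sia5, Galnt11, Galnt16 and St6galnac6 had only 1 probe set above the floor each, so they could not have had more.

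**Figure D3:**
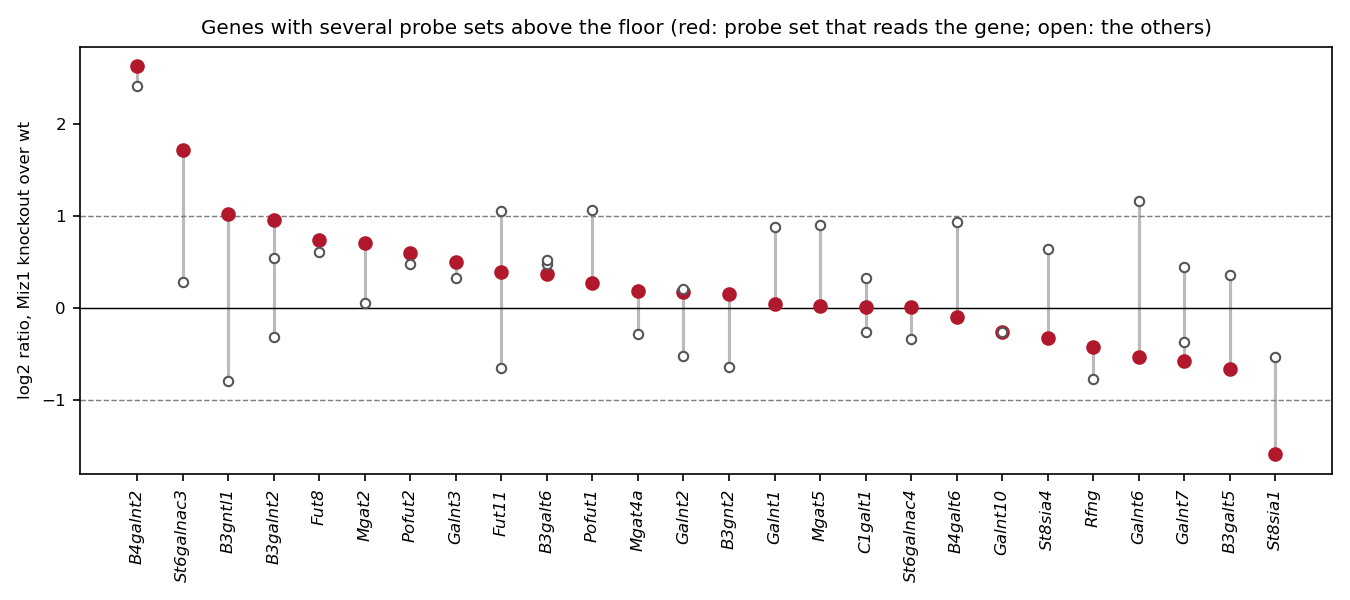
Log2 ratio of Miz1 knockout over wt for each probe set above the floor in the 26 genes that have several, ordered by the probe set that reads the gene (red); open points are the others, grey bars join them, and dashed lines mark 2-fold. In 13 genes the points lie on both sides of 0, whereas those of B4galnt2 lie at 2.63 and 2.41.

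Of the 35 genes not measured, 13 had their brighter array above the floor and 22 had both arrays at or under it. Their presence or absence in these cells was not determined.

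The steps that feed these enzymes were set beside the family. Of 9 measured genes of N-glycan trimming, 0 passed 2-fold, with a median log2 ratio of -0.05. The mannosidases Man1a and Man1c1 had 0.85 and 0.91. Of 25 measured genes of the lipid-linked oligosaccharide and its transfer to protein, 2 were higher and 1 was lower, shares near the 7.23% and 5.65% of all measured genes, with a median of -0.02. Alg2, a mannosyltransferase of the precursor, read 4775 in the knockout and 1967 in wt (2.43-fold higher), and Alg5, which makes its glucose donor, read 2445 and 1193 (2.05-fold higher). Rpn2, a subunit of the oligosaccharyltransferase, read 1446 and 2994 (2.07-fold lower).

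Among 22 measured genes of nucleotide sugar synthesis and transport, 1 was higher (4.55%, beside 7.23% of all) and 2 were lower (9.09%, beside 5.65%), with a median of -0.12. Uap1, which completes UDP-N-acetylglucosamine, read 550 in the knockout and 1509 in wt (2.75-fold lower). However, its 4 probe sets above the floor ran from -1.46 to 0.68, the upper end being a bound. Gnpnat1, an earlier step of the same route, read 486 and 1136 (2.34-fold lower), with -0.15 for its second probe set. Pgm3, the step between them, had a log2 ratio of -0.68, and Gfpt1, which opens the route, had 0.02. The sialic acid genes Nans, Nanp and Cmas had -0.51, -0.50 and -0.43, and Gne, the first step of that route, had 0.55. Fcsk, which salvages fucose, read 844 and 72.7 (at least 2.14-fold higher), while its other probe sets gave 0.45, a bound, and -0.11.

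Of 8 measured glycan-binding and glycan-bearing surface proteins, 0 were higher and Cd22, a B cell lectin for sialic acid, was at least 2.02-fold lower (133 and 798). Lgals1 (galectin-1), which binds thymocyte surface glycans, read 13129 in the knockout and 20883 in wt, a log2 ratio of -0.67. Spn (CD43), a heavily O-glycosylated sialomucin, read 4339 and 2198, a log2 ratio of 0.98, and Ptprc (CD45) had 0.07.

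**Figure D4:**
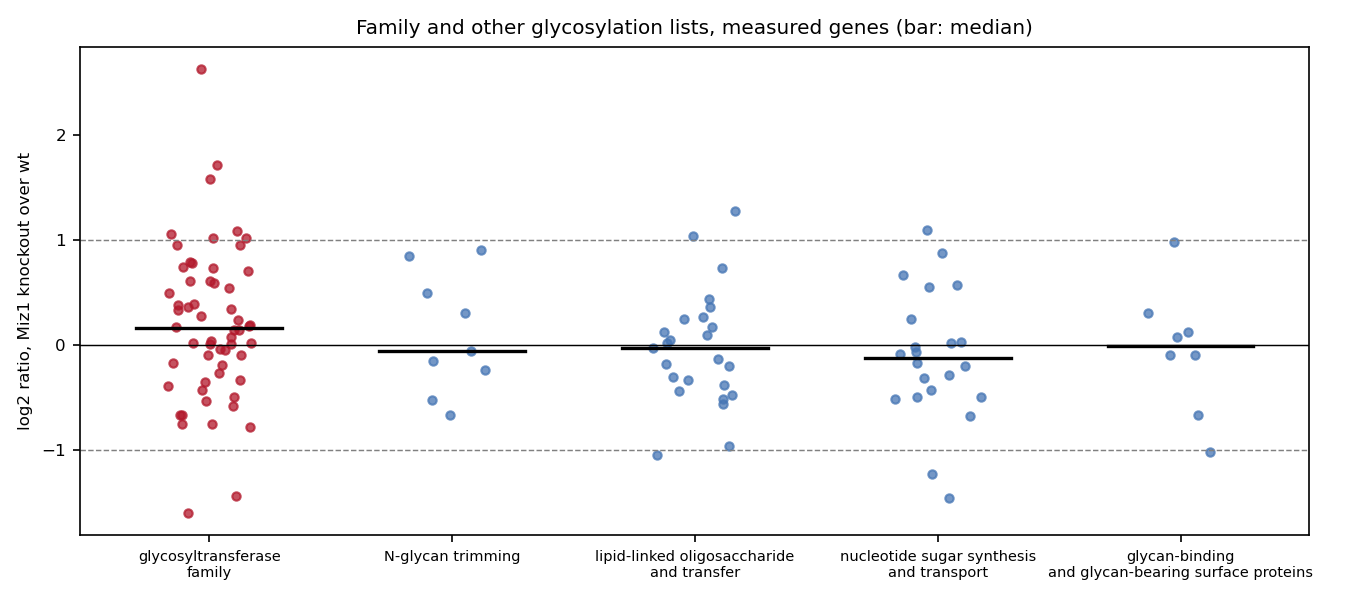
Log2 ratio of Miz1 knockout over wt for the measured genes of the family (red) and of 4 other glycosylation lists (blue), with a bar at each median and dashed lines at 2-fold. The medians run from -0.12 for nucleotide sugars to 0.16 for the family, and B4galnt2 is the highest point of all.

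Markers of other cells also differed between the arrays. Of 8 myeloid markers 2 were measured, Lyz2 and Csf1r, both at least 2-fold higher by the probe set that reads the gene. Other Csf1r probe sets gave log2 ratios of 0.05 and at least 1.37. The myeloid list summed to 5402 in the knockout and 2391 in wt. Itgam, Fcer1g, Mpo, S100a8 and S100a9 were under the floor on both arrays. All 4 gamma-delta T markers were measured, Maf and Trgv4 were higher, and Sox13 and Blk had log2 ratios of -0.14 and 0.21. Other Maf probe sets gave at least 0.78 and at least 0.90, and other Trgv4 probe sets 1.75 and 2.31. The gamma-delta sums were 70498 and 25252, mostly Trgv4. Of 4 mature T markers found, Klf2 and Ctla4 were measured and higher. Ccr7, not measured, read 90.2 and 437, and S1pr1 was under the floor on both arrays. The mature T sums were 7179 and 3453, mostly Ctla4 (5889 and 2770). Of 6 stromal markers 4 were measured and Vim was higher. Other Vim probe sets gave log2 ratios of 0.94 and 0.99, under 2-fold. Epcam, Col1a1 and Krt5 had log2 ratios of 0.93, at least 0.69 and -0.19. The stromal sums were 14821 and 6114, with Col3a1 and Krt8 under the floor. Of 4 NK and innate lymphoid markers found, 3 were measured. Nkg7 and Xcl1 were higher, while Gzma had a log2 ratio of -0.50 (13881 and 19641). Ncr1, not measured, read 554 and 43.7. The sums of this list were 19906 and 21869, mostly Gzma. Of 7 B cell markers found, 5 were measured and did not share a direction. Ighm (11340 and 28208) and Cd22 were lower, while Cd79b, Cd79a and Ms4a1 had log2 ratios of 0.90, at least 0.78 and 0.54. The other Ighm probe sets above the floor ran from -1.31 to 0.54. The B cell sums were 15941 and 31673, mostly Ighm, and Ebf1 and Pax5 were under the floor. Of 5 dendritic markers 1 was measured and 0 passed 2-fold (sums 1114 and 2124). Flt3, not measured, read 67.6 and 554, and H2-Aa, H2-Ab1 and Itgax were under the floor. The 2 erythroid markers found summed to 576 and 602, with Alas2 under the floor. The part of other cells in the family's differences was not tested.

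The alternatives moved single genes unequally. B4galnt2 ranged from 2.37 to 2.63 over 8 alternatives, St3gal3 from 1.46 to 1.58 over the 7 in which it was measured, and St8sia1 from -1.72 to -1.07 over 8. B3gntl1 ranged from -0.88 to 2.75.

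**Figure D5:**
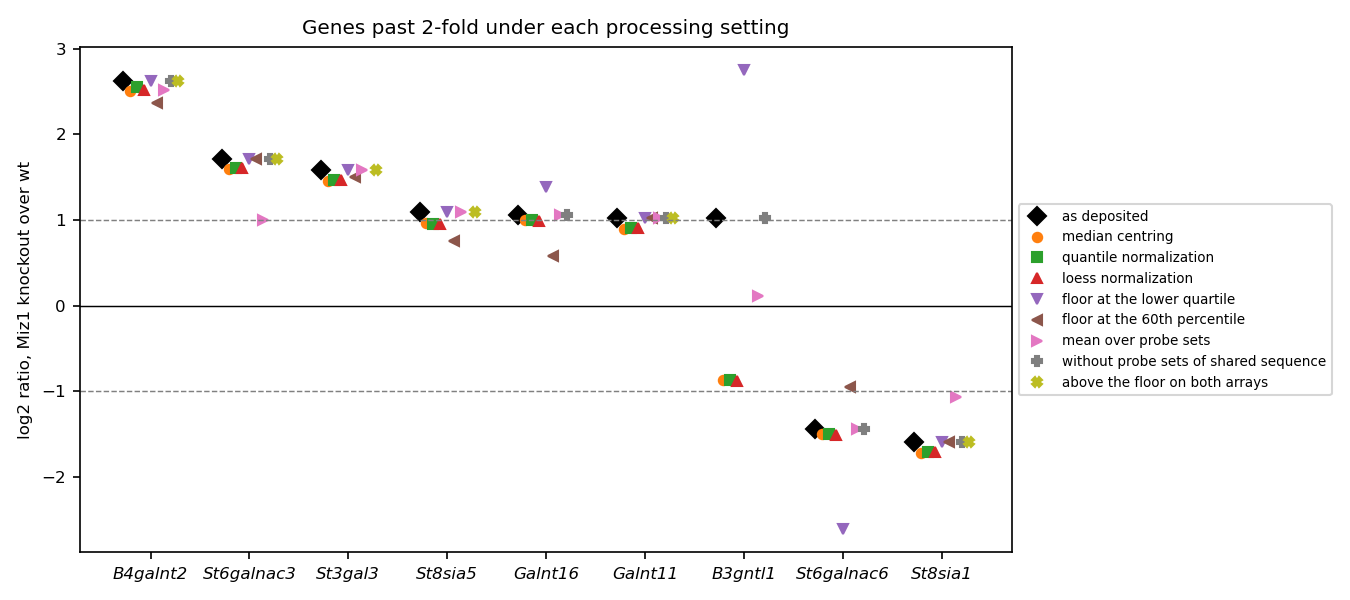
Log2 ratio of Miz1 knockout over wt for the 9 genes past 2-fold (horizontal axis) as deposited (black diamonds) and under 8 alternative settings (other symbols); a missing symbol means that the gene was not measured there, and dashed lines mark 2-fold. B4galnt2 stays between 2.37 and 2.63, whereas B3gntl1 lies on both sides of 0.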

How the data were processed

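Total RNA was prepared with TRIzol, and biotin-labelled cRNA was made by in vitro transcription, per the labels' protocols. The deposited values are linear intensity values, 1 per probe set, and GCOS 1.4 is named in the submitters' processing notes. The settings of GCOS are not recorded there. With the top and bottom 2% of values trimmed, both arrays had a mean of 1000.0, which shows a common scaling before deposit. Detection calls and scanner files were not used here. The number of arrays limits the precision.

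Family members, lists and alternatives were chosen with earlier results of these data known. Names came from the platform annotation, with symbols matched by gene identifier to RefSeq (GRCm38.p6). 34958 have 1 symbol, 932 several and 9160 non-control ones none; those with several or none were not used, nor were 64 control probe sets. All 198 family probe sets matched. Named genes are family members past 2-fold, the 3 of each role with the highest mean signal, and preset thymocyte genes; further members were named to account for the whole family. The alternatives tried were quantile and loess normalization (span 0.3), median centring, floors at the lower quartile and the 60th percentile, the mean over probe sets, leaving out probe sets of shared sequence, and genes above the floor on both arrays. Ratios and calls were tested on simulated data with planted changes larger than 2-fold in genes well above the floor. That test does not cover genes near 2-fold or near the floor. Python 3.11.15, pandas 2.3.3 and statsmodels 0.14.6 were used.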

Additional observations from a re-analysis of the deposited data

How the results depend on the processing

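Of the 9 family genes past 2-fold, B4galnt2 and St8sia1 kept their call in all 8 alternatives and St3gal3 in the 7 where it was measured. The number of genes at least 2-fold higher, 7 as deposited, was 4 of 59 under median centring, 3 of 59 under quantile and 3 of 58 under loess normalization. Of all measured genes 5.58%, 6.22% and 6.32% were higher in these settings. The number was 20 of 83 with the floor at the lower quartile (16.7% of all) and 4 of 47 at the 60th percentile (5.55% of all). The number at least 2-fold lower, 2 as deposited, was 8 with the floor at the lower quartile (13.9% of all). It was 1 at the 60th percentile (4.76% of all) and 1 for genes above the floor on both arrays (4.75% of all). The median log2 ratio of the family was 0.016 under median centring, 0.048 under quantile and 0.049 under loess normalization, where the medians of all measured genes were -0.13, -0.04 and -0.03. Relative to those medians the family's median stood at 0.15, 0.09 and 0.08, beside 0.16 as deposited. B3gntl1 turned sign, to -0.87, -0.87 and -0.88 under median centring, quantile and loess normalization, because another of its probe sets then had the higher mean. Of 243 values of 32 named genes under the alternatives, 236 moved by less than the within-gene SD of 0.57, 4 moved by more and 3, those of B3gntl1, are counted apart. Changes of floor and filters often leave the ratio of a gene bright on both arrays unchanged by construction. The 236 is therefore not a measure of stability. Over all named genes 16 values of 9 genes had the other sign, all but those of B3gntl1 for genes under 2-fold. No paired analysis was possible because each genotype has 1 array. Dim genes are limited by the floor, which compresses their ratios.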
